A study of Mus musculus with 61 samples.

Results

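The foregut endoderm transcription factors described here are 8 genes: the forkhead factors Foxa1, Foxa2 and Foxa3, the nuclear receptors Hnf4a and Hnf4g, the GATA zinc-finger factors Gata4 and Gata6, and the homeobox factor Prox1. They were taken by name from the 46078 genes counted in RNA-sequencing libraries of mouse pancreatic ductal organoid cells, and all 8 were present in the table. Their levels were compared across all 12 conditions of the study, to see which members of the set differed once Ngn3, Pdx1 and MafA were forced on in duct cells.

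Organoids, cultures grown in a gel matrix from the ducts of adult pancreas of C57BL/6 mice, were infected with separate lentiviral vectors carrying GFP-Ngn3, LSSOrange-Pdx1 and tdTomato-MafA, all switched on by doxycycline through a transactivator vector. After 8 days of induction, pools of 50 cells were sorted by colour, so each group was defined by its reporters. In 6 groups Ngn3 was combined with Pdx1, with MafA or with both of them, as either wild-type Ngn3 (WT) or a phospho-mutant form (6SA), in which serines targeted by cyclin-dependent kinases are alanine. The 6 groups without Ngn3 were Pdx1, MafA, and Pdx1 with MafA, each sorted from the WT and from the 6SA cultures. Every cell compared therefore came from a culture infected with an Ngn3 vector, expressed at least 1 ectopic factor and had been given doxycycline, and uninfected cells and cells with Ngn3 alone were not analysed here. The factors were forced by a viral promoter rather than by the cells' own genes, and a pool can hold cells at different stages. Replicates 1 and 2 were at passage 2 of the organoids and replicate 3 at passage 5. The labels do not say whether replicates came from separate animals. Groups of the same replicate number can share a culture, and the main test treats the samples as independent. Its p-values therefore measure the spread between sorted samples, not between separate cultures or animals.

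There were 61 libraries with 241563 to 9736403 counts on genes. The study's quality limits, among them 1000000 gene counts, left out 3 libraries, all of Ngn3 with Pdx1 and MafA. Technical repeats were summed into 32 samples of 2579583 to 19461008 counts, 17 with and 15 without Ngn3, and each condition had 2 or 3 samples. Levels are given as CPM, the counts per 1000000 counts of a sample, with library sizes scaled by TMM, a normalisation to the bulk of genes. Counts on Neurog3, the gene of Ngn3, which include the coding sequence of the vector, were at 7.87 to 329 CPM in the 17 samples with Ngn3 and at 0 to 0.788 CPM in the 15 without. All 9 duct markers examined, among them Krt19, Krt7, Epcam, Sox9 and Cftr, were detected, with a summed level of 15847 to 65036 CPM in the samples without Ngn3.

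The FOXA proteins are known as pioneer factors, which bind their sites in closed chromatin and open them to other factors in gut, liver, lung and pancreas. HNF4α and HNF4γ are nuclear receptors that bind the promoters of liver, intestinal and pancreatic genes, and HNF4α is linked to inherited diabetes. GATA4 and GATA6 are needed for the early pancreas, and PROX1 for the growth of liver, pancreas and lymphatic vessels. Several of these genes are active in endoderm before a pancreatic fate is set, and some stay on in adult duct or islet cells. Ngn3 is a basic helix-loop-helix factor that starts the endocrine programme, and proteins of its class bind E-boxes, written CANNTG.

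The start regions of Foxa3, Prox1 and Hnf4a are shown because these 3 members differed in level between cells with and without Ngn3, and an E-box is the kind of site that Ngn3 can bind. Each sequence runs from 250 bases before to 50 bases after an annotated start in RefSeq, on the GRCm38.p6 build, with every CANNTG in capitals. The Foxa3 window is at chr7:19023490-19023789 on the minus strand, the Prox1 window at chr1:190170778-190171077 on the minus strand, and the Hnf4a windows, at its upstream and its downstream start, at chr2:163506607-163506906 and chr2:163546905-163547204 on the plus strand.
Foxa3: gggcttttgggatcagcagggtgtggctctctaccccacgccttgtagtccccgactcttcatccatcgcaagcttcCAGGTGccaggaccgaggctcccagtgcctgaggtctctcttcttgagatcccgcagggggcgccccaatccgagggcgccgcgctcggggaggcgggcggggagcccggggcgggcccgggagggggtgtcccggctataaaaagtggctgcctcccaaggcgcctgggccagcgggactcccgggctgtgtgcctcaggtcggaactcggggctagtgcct
Prox1: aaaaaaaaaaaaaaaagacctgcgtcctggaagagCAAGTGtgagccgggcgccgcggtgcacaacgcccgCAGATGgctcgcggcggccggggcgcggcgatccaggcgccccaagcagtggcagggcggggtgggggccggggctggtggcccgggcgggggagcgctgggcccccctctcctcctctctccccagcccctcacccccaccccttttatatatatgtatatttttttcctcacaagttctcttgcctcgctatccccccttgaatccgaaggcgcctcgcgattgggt
Hnf4a upstream: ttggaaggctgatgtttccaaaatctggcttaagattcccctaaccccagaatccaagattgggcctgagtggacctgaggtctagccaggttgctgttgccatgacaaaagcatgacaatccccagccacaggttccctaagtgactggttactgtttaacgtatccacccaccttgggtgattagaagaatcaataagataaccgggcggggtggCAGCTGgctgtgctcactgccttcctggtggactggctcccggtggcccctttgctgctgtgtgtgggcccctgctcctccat
Hnf4a downstream: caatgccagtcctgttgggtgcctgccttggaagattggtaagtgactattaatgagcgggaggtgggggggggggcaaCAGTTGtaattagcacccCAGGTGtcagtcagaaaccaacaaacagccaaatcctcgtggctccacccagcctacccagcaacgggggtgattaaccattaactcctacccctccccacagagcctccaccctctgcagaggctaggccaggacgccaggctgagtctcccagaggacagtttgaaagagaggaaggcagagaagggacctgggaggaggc
CANNTG reads the same on either strand, and 72.3% of all 32817 RefSeq start windows of this length hold it, so holding it is common. The spelling CAGATG, a form of CANNTG that neurogenins are known to bind, was searched on both strands, where the other strand reads CATCTG. It was in the Prox1 window and in 17.2% of all windows. None of the other windows shown held it. A match is a description of the letters in the window and does not show binding. Among members that were not called with Ngn3, the Foxa1 window held 2 CANNTG, as many as the Prox1 window, and of 3 Foxa2 windows 1 held it. The other start of Prox1 held none.

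Compared per kilobase of exon, Foxa2 was the most abundant member in cells without Ngn3, with a mean of 33.8 CPM per kilobase. Hnf4a followed at 21.6, Gata6 at 6.09, Prox1 at 4.76, Foxa3 at 3.77 and Foxa1 at 2.27 CPM per kilobase. Gata4 and Hnf4g were close to the limit of detection, at 0.179 and 0.0617 CPM per kilobase. In cells with Ngn3, Prox1 at 14.1 and Foxa3 at 13.2 CPM per kilobase stood beside Hnf4a at 12.03, while Foxa2 at 39.7 was again at the top. The plot of all 8 genes by sample shows these levels on the CPM scale.

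**Figure D1:**
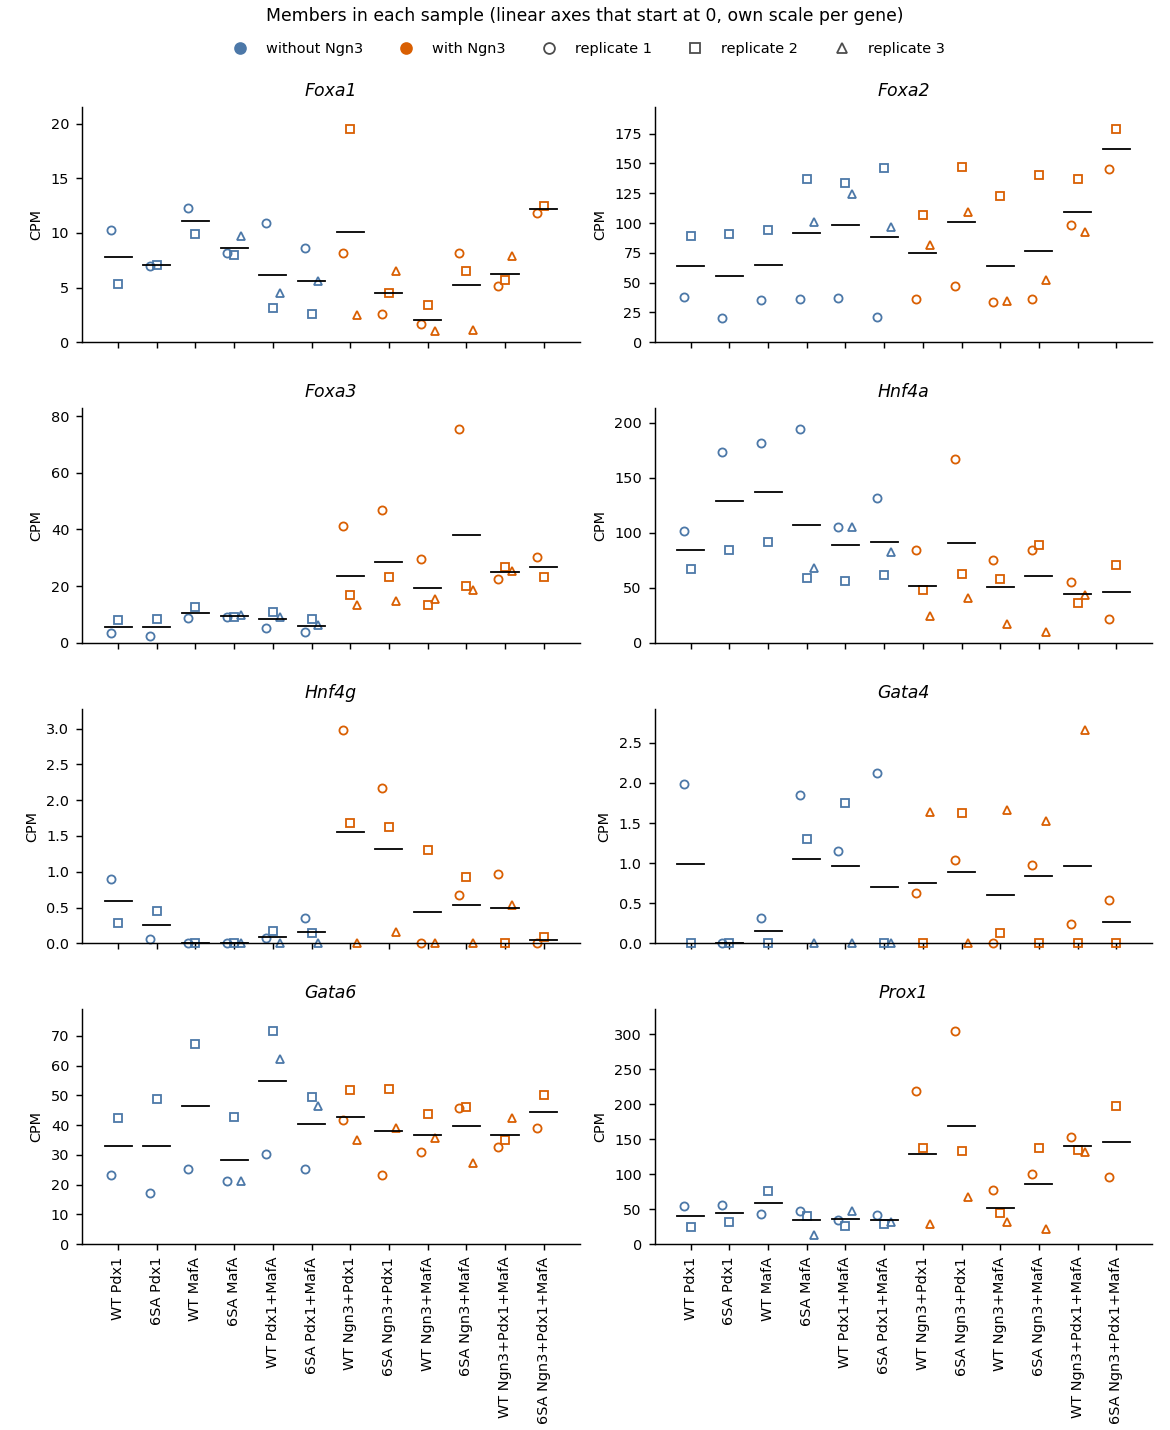
Level of each member in CPM (vertical axes, linear, each on its own scale) in the 32 samples, by condition on the horizontal axis. Points are samples, with the shape giving the replicate number and the colour the presence of Ngn3, and bars are condition means. Foxa3 was at 13.2 CPM or more in every sample with Ngn3 and at 12.6 CPM or less in every sample without it, while no sample had more than 2.66 CPM of Gata4 or 2.98 CPM of Hnf4g.

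Foxa3 and Prox1 rose and Hnf4a fell in cells with Ngn3, taken over both cultures and the 3 combinations. Foxa3 was 3.59-fold and Prox1 2.76-fold higher, and Hnf4a was 1.87-fold lower. With edgeR's quasi-likelihood test and Benjamini-Hochberg adjustment over the 24004 genes tested, 3 of the 8 members passed an adjusted p of 0.05, where 21.5% of all genes tested did (11.1% higher and 10.5% lower). All 8 passed the filter on low counts, but Hnf4g and Gata4 had conditions with every sample at 3 counts or fewer, and no fold change is given for them. Over the other 6 members the median log2 change was 0.18, beside -0.03 over all genes tested that had no such condition. Since the samples were pools, more cells expressing a gene and more RNA per cell cannot be told apart. The plot of changes by combination gives each member's estimate.

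**Figure D2:**
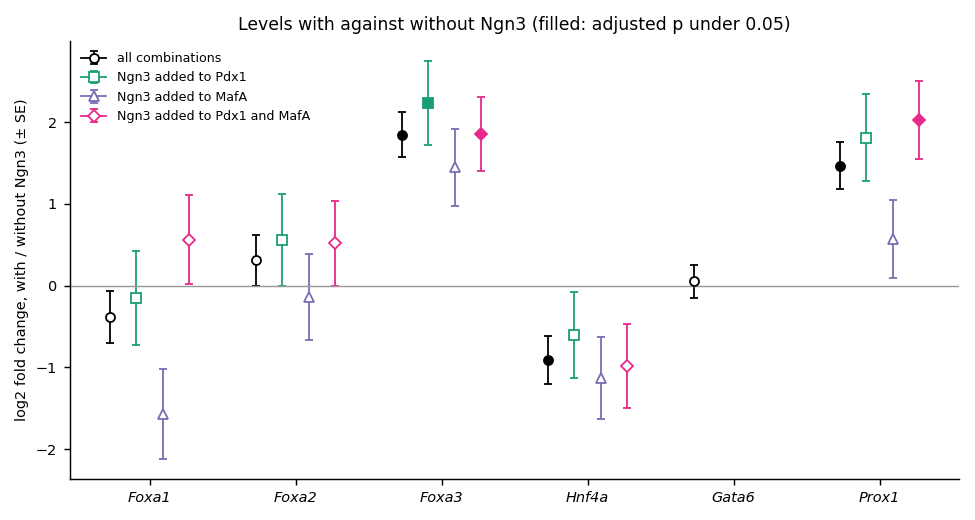
Log2 fold change of each member between cells with and without Ngn3 (vertical axis, with bars of 1 SE), over all combinations for the 6 members with more than 3 counts in some sample of every condition, and in each combination for the 5 of them discussed there. Filled symbols passed an adjusted p of 0.05 in edgeR. Foxa3 was above 0 in all 4 comparisons and Hnf4a below 0 in all 4.

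Among the forkhead genes, Foxa3 (chr7:19013284-19023538 on GRCm38) separated the cells with Ngn3 from those without. In the Pdx1 groups, Foxa3 was at 3.34 and 8.10 CPM in the WT cultures and 2.41 and 8.55 CPM in the 6SA cultures. With Ngn3 added it was at 41.0, 16.9 and 13.3 CPM (WT) and 47.0, 23.4 and 14.8 CPM (6SA), for replicates 1, 2 and 3. Every sample with Ngn3 lay above every sample of the Pdx1 groups, with replicate 1 the highest in both cultures. In the MafA groups, Foxa3 was at 8.68 and 12.6 CPM (WT) and at 8.99, 9.24 and 9.75 CPM (6SA). Adding Ngn3 to MafA gave 29.5, 13.2 and 15.3 CPM (WT) and 75.3, 20.04 and 18.6 CPM (6SA). The highest value of the series was thus replicate 1 of 6SA Ngn3 with MafA, and WT replicate 2 lay only just above its MafA counterpart. In the groups with Pdx1 and MafA, Foxa3 was at 5.13, 10.8 and 9.27 CPM (WT) and at 3.77, 8.24 and 6.14 CPM (6SA). With all 3 factors it was at 22.4, 26.8 and 25.4 CPM (WT) and at 30.1 and 23.2 CPM (6SA). These were the most even values among the groups with Ngn3.

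Over all samples, Foxa3 was at 13.2 CPM or more in the 17 samples with Ngn3 (median 23.2, highest 75.3) and at 12.6 CPM or less in the 15 without (median 8.55, lowest 2.41). The 2 sets did not overlap, which was true in this direction of 0.542% of the genes tested. Foxa3 was higher with Ngn3 in 14 of 14 pairs of samples that shared a culture, a combination and a replicate number, as were 2.96% of the genes tested. The log2 change was 1.85 ± 0.28 (SE, 17 against 15 samples, adjusted p = 1.30e-05 in edgeR). It was 1.51 ± 0.39 in the WT cultures (adjusted p = 0.0132, 8.59% of genes called) and 2.19 ± 0.39 in the 6SA cultures (adjusted p = 0.000307, 14.1% of genes called), and the difference between these was not significant (0.68 ± 0.53, adjusted p = 1.00). Without replicate 1, which held the highest values with Ngn3, the change was 1.08 (adjusted p = 0.0388). The plot of same-numbered pairs shows this in each combination.

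**Figure D3:**
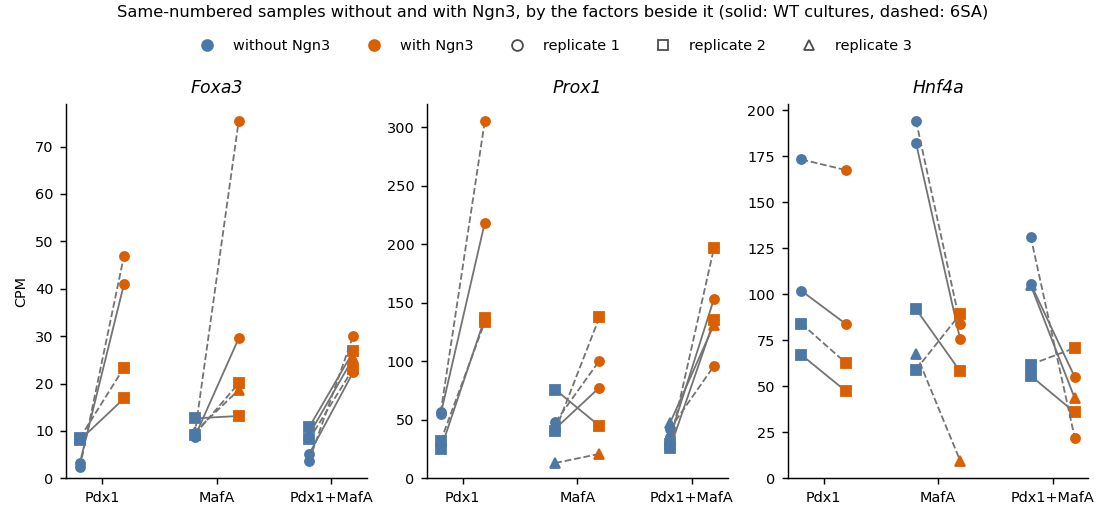
Same-numbered samples without (blue) and with Ngn3 (orange), joined by lines (solid for WT, dashed for 6SA cultures), for the factor or factors expressed beside Ngn3 on the horizontal axis and CPM on the vertical axis, which starts at 0. Foxa3 was higher with Ngn3 in 14 of 14 pairs and Prox1 in 13 of 14, and Hnf4a was lower in 12 of 14.

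By combination, the log2 change of Foxa3 was 2.23 ± 0.52 when Ngn3 was added to Pdx1 (adjusted p = 0.0200 in edgeR), a comparison in which 1.49% of the genes tested were called. The call was lost without replicate 1 (1.04, adjusted p = 1.00), without replicate 2 (3.35, adjusted p = 0.223) and when only the conditions compared were fitted (2.24, adjusted p = 0.0653). With Ngn3 added to MafA it was 1.45 ± 0.47 (adjusted p = 0.0770, 4.67% of genes called). Blocking on the replicate number, which pairs these samples, gave 1.46 ± 0.45 (adjusted p = 0.0384), with 2123 genes called against 1121 without the block. For Ngn3 added to Pdx1 and MafA it was 1.86 ± 0.45 (adjusted p = 0.00469, 17.8% of genes called). Leaving out replicate 1 or replicate 2 ended this last call (1.59 and 2.17, adjusted p = 0.0598 and 0.0733). A test that the change was the same in the 3 combinations gave an unadjusted p of 0.498 for Foxa3.

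Foxa2 (chr2:148042877-148046969), the FOXA member with the highest level per kilobase, did not pass the test for Ngn3 (log2 change 0.31 ± 0.31, adjusted p = 0.632 in edgeR), and its level differed by replicate number. In replicate 1, the 6 samples without Ngn3 were at 20.05 to 38.2 CPM and those of Ngn3 with Pdx1 or with MafA at 33.8 to 46.9 CPM. In replicate 2, the samples without Ngn3 were at 88.9 to 147 CPM, and the lowest sample of all, with or without Ngn3, was at 88.9 CPM. In replicate 3, the samples without Ngn3 were at 96.6, 101 and 125 CPM and those with it at 34.9 to 109.6 CPM. The exceptions in replicate 1 were the samples with all 3 factors, at 98.1 CPM (WT) and 145 CPM (6SA), which lay apart from the other 10 samples of that number. This separation held in the single libraries, 6 of them at 92.7 to 178 CPM with all 3 factors against 27 at 15.6 to 72.6 CPM, here as CPM of the plain library totals. These libraries are technical repeats of the same samples and add no further replicates. The separation was noticed after the values were seen and is given without a test. The share of genes with such a split was not determined. In replicates 2 and 3 the samples with all 3 factors were at 137 and 179 CPM and at 92.1 CPM, and the last of these was below each of the 3 samples without Ngn3.

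Replicate 2 against replicate 1, a comparison chosen after the values were seen, gave a log2 difference of 1.58 ± 0.20 for Foxa2 (adjusted p = 2.00e-06 in edgeR), in a contrast that called 17.6% of the genes tested. Gata6 was the other member called in it (0.77 ± 0.17, adjusted p = 0.00195). The remaining members were not called, and Hnf4a was at -0.65 ± 0.27 (adjusted p = 0.106). When Pdx1 was added to Ngn3 and MafA, Foxa2 was higher by 0.93 ± 0.52 on the log2 scale (adjusted p = 0.344, 2.72% of genes called). Blocked on the replicate number, which pairs these samples, the difference was 1.26 ± 0.29 (adjusted p = 0.00772), with 2038 genes called against 654 without the block. The plot of samples by replicate number shows the levels behind these values.

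**Figure D4:**
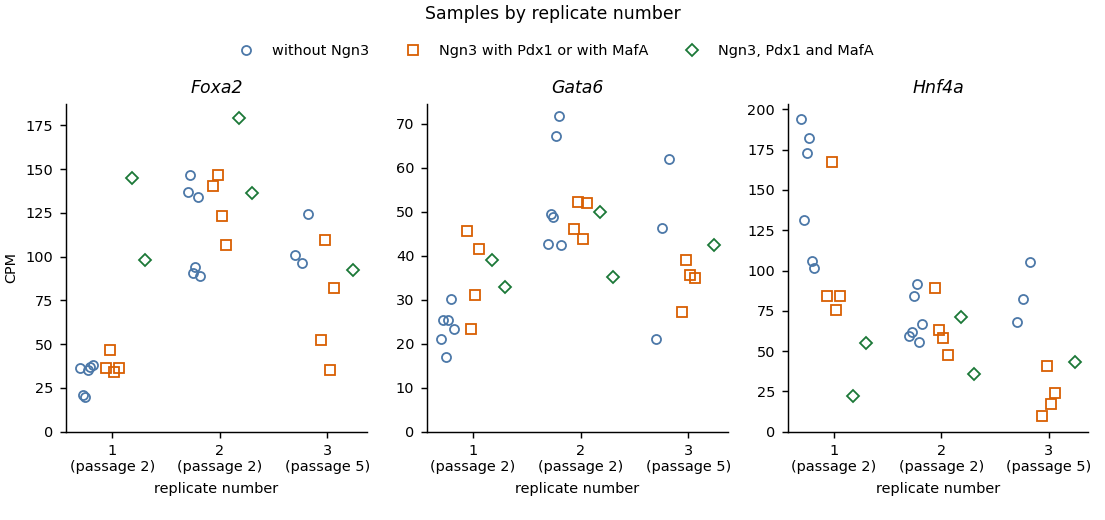
Foxa2, Gata6 and Hnf4a in CPM (vertical axes, starting at 0) in the 32 samples, by replicate number and its passage on the horizontal axis. Circles are samples without Ngn3, squares Ngn3 with Pdx1 or with MafA, and diamonds all 3 factors. Foxa2 was at 46.9 CPM or less in 10 of 12 samples of replicate 1, with both diamonds above them.

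Foxa1 (chr12:57540628-57546916) was low, at 1.06 to 19.6 CPM in cells with Ngn3 (median 5.71) and 2.601 to 12.3 CPM in cells without (median 7.94), and the ranges overlapped. Its log2 change with Ngn3 was -0.39 ± 0.32 (adjusted p = 0.515 in edgeR). In cells with Ngn3 and MafA, however, Foxa1 was at 1.69, 3.39 and 1.06 CPM in the WT cultures against 12.3 and 9.87 CPM with MafA alone. In the 6SA cultures it was at 8.13, 6.54 and 1.07 CPM against 8.18, 7.94 and 9.75 CPM. The WT samples, 3 against 2, did not overlap, and the share of all genes tested that separate there was not determined. In the 6SA cultures only replicate 3 was far below its counterpart. The log2 change in this combination was -1.57 ± 0.55 (adjusted p = 0.113). DESeq2, which called 1945 genes here against 1121 in edgeR, called this change (-1.55, adjusted p = 0.0279). In the other combinations it was -0.15 ± 0.57 with Pdx1 and 0.56 ± 0.54 with Pdx1 and MafA (adjusted p = 1.00 and 0.535). The test of a difference among the 3 combinations gave an unadjusted p of 0.0315, which did not pass adjustment (adjusted p = 0.5997), in a test that called 0.0333% of the genes tested.

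Hnf4a (chr2:163506808-163572910) was at 55.8 to 194 CPM (median 91.9) in cells without Ngn3, and it was at 9.63 to 168 CPM (median 55.1) in cells with Ngn3. The ranges overlapped, but Hnf4a was lower with Ngn3 in 12 of 14 same-numbered pairs, and 10.6% of the genes tested were lower in at least as many. The log2 change was -0.91 ± 0.30 (adjusted p = 0.0264 in edgeR). This call was lost without replicate 1, 2 or 3 (-0.68, -1.41 and -0.67, adjusted p = 0.117, 0.0559 and 0.0850) and in each kind of culture on its own (-1.05 in WT and -0.77 in 6SA, adjusted p = 0.132 and 0.250), with the direction kept in each.

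By replicate number, Hnf4a in replicate 1 was at 102 to 194 CPM without Ngn3 and at 22.0 to 168 CPM with it. In replicate 2 it was at 55.8 to 91.9 CPM without and 35.8 to 89.3 CPM with Ngn3. In replicate 3 it was at 67.7, 82.3 and 105 CPM without Ngn3 and at 9.63 to 43.5 CPM in the 5 samples with it. The 2 sets overlapped in replicates 1 and 2 and not in replicate 3, where 5 samples were set against 3. The share of all genes tested that separate in sets this small was not determined. In no single combination was the change called by edgeR as fitted here. It was -0.61 ± 0.52 with Pdx1, -1.13 ± 0.50 with MafA and -0.99 ± 0.51 with Pdx1 and MafA, with adjusted p of 0.749, 0.247 and 0.192 in edgeR. Of 12 alternative settings, 0 called it with Pdx1, 1 with MafA and 1 with Pdx1 and MafA. Hnf4a shares its locus with the antisense gene Hnf4aos, which has no exon base in common with it and was at 0.484 CPM or less in every sample.

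Hnf4g (chr3:3508030-3658052), the paralog of Hnf4a that is best known from the intestine, was at 0 in 6 of 17 samples with Ngn3 and in 7 of 15 without, where 3 counts correspond to 0.136 to 1.01 CPM depending on the sample. It had more than 3 counts in 9 samples with Ngn3 and in 3 without. The highest levels were in Ngn3 with Pdx1, at 2.98, 1.69 and 0 CPM in WT and at 2.18, 1.63 and 0.159 CPM in 6SA cells. All 5 samples with MafA alone were at 0. The mean over all samples was 0.772 CPM with Ngn3 and 0.162 CPM without, and Hnf4g was higher in 9, lower in 3 and equal in 2 of 14 same-numbered pairs. In 4 conditions every sample was at 3 counts or fewer, so no ratio is given. Hnf4g was not called with Ngn3 (adjusted p = 0.0559 in edgeR), and 6 of 13 alternative settings placed it past the threshold.

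Neither GATA factor was called by edgeR in any comparison of Ngn3, Pdx1 or MafA. Gata6 was at 23.4 to 52.2 CPM in cells with Ngn3 (median 39.1) and at 17.1 to 71.8 CPM in cells without (median 42.5). It was higher with Ngn3 in 11 of 14 same-numbered pairs, where 14.7% of the genes tested were higher in at least as many, and in 4 of 4 beside Pdx1. The log2 change of Gata6 was 0.05 ± 0.20 (adjusted p = 1.00 in edgeR), and a negative value was obtained without replicate 1 and in the WT cultures alone. Gata6 shares 93 exon bases with 1010001N08Rik on the opposite strand. Gata4 (chr14:63198922-63271692) was at 2.66 CPM or less in every sample and at 0 in 14 of 32. Its mean was 0.746 CPM with Ngn3 and 0.697 CPM without, and it was higher in 5, lower in 7 and equal in 2 of 14 same-numbered pairs. Gata4 was not called with Ngn3 (adjusted p = 0.533 in edgeR), and 2 conditions had every sample at 3 counts or fewer.

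Prox1 (chr1:190118035-190170714) had its 4 highest condition means in cells with both Ngn3 and Pdx1. In the Pdx1 groups, Prox1 was at 54.9 and 24.9 CPM (WT) and at 56.6 and 31.8 CPM (6SA). With Ngn3 added to Pdx1 it was at 219, 137 and 29.2 CPM (WT) and at 305, 134 and 67.8 CPM (6SA), for replicates 1, 2 and 3. Replicates 1 and 2 stood above every sample with Pdx1 alone, and WT replicate 3, at passage 5, lay among them. In the groups with Pdx1 and MafA, Prox1 was at 35.1, 25.6 and 47.2 CPM (WT) and at 42.3, 29.3 and 31.3 CPM (6SA). With all 3 factors it was at 154, 135 and 132 CPM (WT) and at 96.2 and 197 CPM (6SA), so these groups did not overlap. How many of the genes tested separate in this comparison was not determined. With MafA alone, Prox1 was at 42.5 and 75.9 CPM (WT) and at 48.0, 40.8 and 13.2 CPM (6SA). Adding Ngn3 to MafA gave 77.7, 44.9 and 31.0 CPM (WT) and 101, 138 and 20.9 CPM (6SA). These 2 sets overlapped in both cultures.

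Over all combinations, the log2 change of Prox1 was 1.47 ± 0.29 (17 against 15 samples, adjusted p = 0.000351 in edgeR), and it was higher in 13 of 14 same-numbered pairs, where 6.12% of the genes tested were higher in at least as many. The call was lost without replicate 2 (1.24, adjusted p = 0.109) and in the WT cultures alone (1.14, adjusted p = 0.0820), and held in the 6SA cultures alone (1.79, adjusted p = 0.00315). By combination, the log2 change was 2.03 ± 0.48 with Pdx1 and MafA (adjusted p = 0.00359), a call that was lost without replicate 2 (1.59, adjusted p = 0.256). It was 1.81 ± 0.53 with Pdx1 (adjusted p = 0.0908). The same samples blocked on replicate number gave 1.96 ± 0.44 (adjusted p = 0.00607), with 1011 genes called against 358 without the block. With MafA it was 0.57 ± 0.48 (adjusted p = 0.683). The difference among the 3 combinations did not pass the test (unadjusted p = 0.0808, adjusted 0.734). When Pdx1 was added to Ngn3 and MafA, Prox1 was higher by 1.11 ± 0.47 on the log2 scale, which was not called (adjusted p = 0.196).

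The antisense gene Prox1os shares 133 exon bases with Prox1. Prox1os was at 0.857 CPM on average in 6SA and 1.41 CPM in WT cells with Ngn3 and MafA. With Ngn3 and Pdx1 the means were 11.1 and 7.75 CPM, and with all 3 factors 10.6 and 14.3 CPM. Without Ngn3 it was at 4.01 CPM or less in each of the 15 samples. Prox1os also rose with Ngn3 (log2 change 3.51 ± 0.70, adjusted p = 0.000429 in edgeR). Its highest level in any sample was 19.0 CPM. Whether counting used strand was not stated, and the library preparation does not mark it, so reads of the pair over the shared bases cannot be told apart.

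Neither the form of Ngn3 nor Pdx1 and MafA without Ngn3 gave a called member in edgeR as fitted here. Phospho-mutant against wild-type Ngn3, over the 3 combinations, called 0 of 24004 genes (0%), with 1421 genes at an unadjusted p under 0.05, 26 called by DESeq2, 239 by edgeR without a gene filter and 31 without replicate 1. No member had an unadjusted p under 0.05 there, and the smallest adjusted p among the 8 was 0.970. The same contrast in cells without Ngn3 called 0 genes (591 at an unadjusted p under 0.05, 8 by DESeq2, 6 without a gene filter), as did the difference of the Ngn3 change between cultures (647, 5 and 101). Pdx1 added to MafA and MafA added to Pdx1, both without Ngn3, called 0 genes (689 and 531 at an unadjusted p under 0.05, 27 and 13 by DESeq2, 61 and 28 without a gene filter), and again no member had an unadjusted p under 0.05. MafA added to Ngn3 and Pdx1 called 1.88% of genes and no member.

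Passage was the only batch that the labels gave. Prox1 was lower at passage 5 than at passage 2 by a log2 difference of -1.02 ± 0.31 (adjusted p = 0.0418 in edgeR with condition in the model), in a contrast that called 8.23% of the genes tested. This call was lost with the first technical repeat alone (-0.95, adjusted p = 0.0666) and without replicate 1 (-0.92, adjusted p = 0.0947). Hnf4a was at -0.97 ± 0.34 (adjusted p = 0.0712), not past the threshold, and Hnf4g was not called (adjusted p = 0.0799). Of 9 alternatives, 4 called Hnf4a, whose log2 difference ranged from -1.44 to -0.57 over them all, and 1 called Hnf4g. Foxa2 was at -0.08 ± 0.38 (adjusted p = 0.923), at 1.04 when replicate 2 was left out (adjusted p = 0.00842) and at -0.75 when replicate 1 was left out (adjusted p = 0.0405). Counts on Neurog3, which include the vector, were also lower at passage 5 (-2.39 ± 0.40, adjusted p = 0.00111 in edgeR). Whether this lower Neurog3 level had a part in the Prox1 difference was not tested. All passage 5 samples were replicate 3, so passage and replicate 3 cannot be told apart.

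Among other endoderm factors, those that changed with Ngn3 all fell. Of 17 tested genes in a list of 20, 7 fell with Ngn3 and 0 rose. Thus 41.2% of the list was called, beside 21.5% of all genes tested (10.5% lower). An unadjusted p under 0.05 was found for 9, as for 30.3% of all genes tested. The median log2 change was -0.82 over the 11 with no condition at 3 counts or fewer. Elf3, an epithelial factor, went from 209 ± 88.8 to 81.3 ± 43.3 CPM (SD, 15 and 17 samples), a log2 change of -1.47. Onecut2 and Onecut3, both of the family of the early pancreatic factor Onecut1, changed by -0.69 and -1.42. Tcf7l2, a Wnt pathway factor, changed by -0.82. Sox17, a factor of early endoderm, went from a mean of 5.44 to 0.740 CPM. The summed level of the list was 1229 to 2396 CPM without and 604 to 1571 CPM with Ngn3. The 10 tested family paralogs gave 0 calls in edgeR, with 1 gene at an unadjusted p under 0.05 and 1 called by DESeq2.

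Known partners and targets of the members showed both directions. Of the tested genes, 30.8% of cofactors, 30.8% of HNF4 targets and 60.0% of FOXA targets were called, beside 21.5% of all genes. Among 13 cofactors, Zfpm1, a partner of GATA factors, and the corepressor Tle2 rose by 1.77 and 1.27 on the log2 scale, and the corepressor Tle3 and the coactivator Ppargc1a changed by -1.03 and -1.88. Of 13 tested genes known as HNF4 targets, 2 rose and 2 fell. The apolipoprotein gene Apoa1 had at most 1 count in any sample without Ngn3 and a mean of 5.56 ± 12.05 CPM with it, and Apob went from a mean of 0.278 to 0.817 CPM. The brush border genes Vil1 and Cdh17 changed by -1.82 and -1.55. Of 10 tested FOXA targets, 4 rose and 2 fell. Those that rose were Abcc8 and Kcnj11, the 2 subunits of the potassium channel of β-cells (means of 8.58 and 0.372 CPM without Ngn3, 204 and 4.24 CPM with it), Alb (8.68 and 44.1 CPM) and Pdx1 (log2 change 0.95), whose counts include the vector. The secretory genes Agr2 and Muc5ac went from means of 7.94 and 0.436 CPM to 0.637 and 0.0394 CPM. Over genes with no condition at 3 counts or fewer, the median log2 change was 0.19 for 10 cofactors and -0.04 for 7 HNF4 targets, and only 3 FOXA targets remained.

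**Figure D5:**
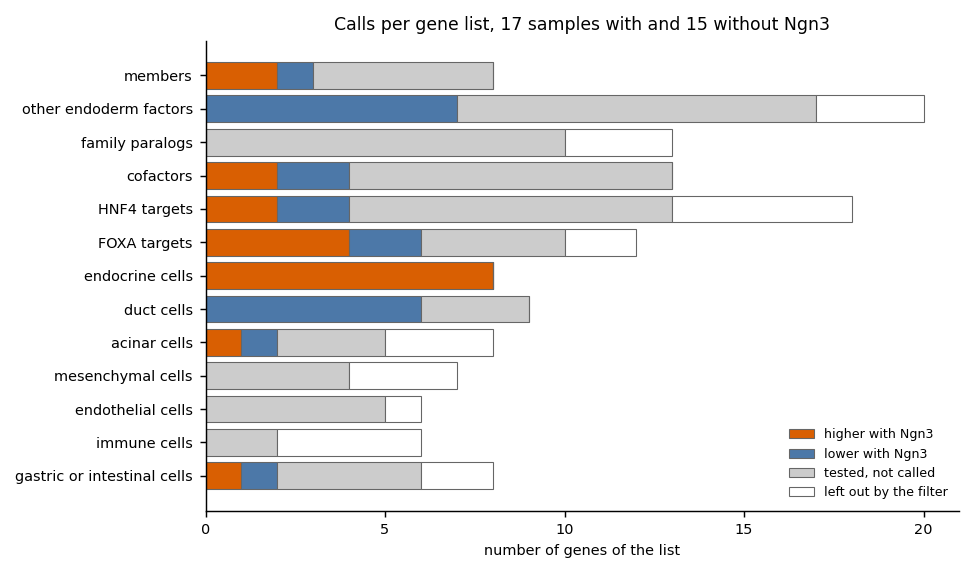
Number of genes of each list (horizontal axis) that were higher, lower or not called with Ngn3 at an adjusted p of 0.05 in edgeR, or left out by the filter on low counts. The other endoderm factors have 7 lower and 0 higher genes, against 2 higher and 1 lower of the 8 members.

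Markers of other cell states moved in the same comparison. All 8 endocrine markers rose, among them Chga, Chgb, Neurod1, Isl1, Scg2 and Scg3, and their summed level was 481 to 13354 CPM with Ngn3 against 1.29 to 8.24 CPM without. Of the 9 duct markers, 6 fell, among them Krt19, Krt8, Krt18, Spp1 and Cftr, with a summed level of 2425 to 21626 CPM with Ngn3. Their part in the changes of Foxa3, Prox1 and Hnf4a was not tested. Of 5 tested acinar markers, 1 rose and 1, Cela1, fell, with a summed level of at most 49.7 CPM with and 13.3 CPM without Ngn3, and the defining markers Cpa1, Ctrb1 and Pnlip had at most 19 counts in any sample. Tff2 rose and Muc5ac fell among 6 gastric or intestinal markers (at most 53.2 and 19.2 CPM in sum). The 4 mesenchymal, 5 endothelial and 2 immune markers tested gave 0 calls in edgeR and 0 at an unadjusted p under 0.05. Their summed levels reached 296, 52.0 and 43.6 CPM with Ngn3 and 13.2, 44.7 and 18.8 CPM without.

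The genes most like each member were sought by Pearson's r of the 12 condition means of log2(CPM + 1), among 10273 genes, as a description. The nearest to Foxa3 were Lysmd2 (0.96), Cacna2d1, a calcium channel subunit (0.96), and Pla2g12a (0.96). Prox1 was most like Yipf6 (0.96), Sst, the hormone somatostatin (0.96), and Ghr, the growth hormone receptor (0.96). For Hnf4a the genes were Reg3b, Lcor and 2610507B11Rik (0.96, 0.96 and 0.95), for Foxa2 Tbcc, Ccdc85b and Prob1 (0.96, 0.94 and 0.93), and for Foxa1 Sik2, Chd3 and Ttbk2 (0.95, 0.91 and 0.91). The values were lower for Hnf4g (Alms1, Atmin and Cobll1, 0.77 to 0.88), Gata4 (Ssu72, Snrnp27 and Rbm8a, 0.86 to 0.88) and Gata6 (Mrtfb, Ebag9 and Zfp654, 0.79 to 0.83). Over the 32 samples in place of the condition means, these fell, to 0.47 for Lysmd2 and 0.85 for Sst, and to -0.04 for Prob1. Among the members, the condition means of Foxa3 and Prox1 went together (r = 0.82) and those of Foxa3 and Hnf4a went opposite ways (r = -0.80). Over the 32 samples these values were 0.64 and -0.31.

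In order of condition means, the 6 groups with Ngn3 took the first 6 places for Foxa3, from 38.0 ± 32.3 CPM in 6SA Ngn3 with MafA (SD, n = 3) to 19.3 ± 8.89 CPM in WT Ngn3 with MafA, and the next was WT MafA at 10.7 ± 2.81 CPM (n = 2). Only that step, of 11 between neighbours, had ranges that did not overlap. For Foxa2 the step that did not overlap was the first, from 162 ± 24.1 CPM in 6SA cells with all 3 factors (n = 2) to 109 ± 24.2 CPM in the WT cells (n = 3). Replicate 3 of this 6SA group was left out by the quality limits, and its library had Foxa2 at 53.8 CPM (22 counts). Left-out repeats of replicate 2 were at 99.4 CPM (6SA, 24 counts) and 109 CPM (WT, 68 counts), all as CPM of plain library totals. The first step therefore rests on which libraries were kept. For Prox1 the first 4 places went from 169 ± 123 CPM in 6SA Ngn3 with Pdx1 to 128 ± 95.02 CPM in WT Ngn3 with Pdx1 (n = 3 each). For Hnf4a the last 5 places were held by groups with Ngn3, down to 44.8 ± 9.69 CPM in WT cells with all 3 factors. All 11 neighbours overlapped for Hnf4a, Prox1, Foxa1, Hnf4g, Gata4 and Gata6.

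Technical repeats of the same replicate gave a measure of the spread between libraries of so few cells. In the 17 samples with repeats, the highest library over the lowest had a median ratio of 1.35 for Foxa2, 1.43 for Prox1, 1.47 for Hnf4a, 1.47 for Gata6 and 2.01 for Foxa3. For Foxa1 it was 2.34 over the 16 samples with no library at 0. For Hnf4g and Gata4 only 5 and 1 of the 17 samples had every library above 0. The largest ratio for Foxa3 was 5.53, so libraries of a single replicate could differ by more than the fold change with Ngn3.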

How the data were processed

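RNA from pools of 50 sorted cells was sequenced in 61 libraries of 12 conditions. According to the study's methods and the submitters' processing notes, the authors aligned single-end reads to mm10 with GSNAP and counted them on Ensembl genes with HTSeq 0.5.3p3. The deposited values were raw counts, with a column for each library and technical repeats kept apart. Counts on a gene overlapped by another can be lost as ambiguous (3.44% to 14.2% of reads). The table held 46078 genes, 92 spike-in sequences and 5 summary rows that were kept out of library sizes.

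The quality limits of the methods (under 25% spike-ins, over 1000000 gene counts, over 10000 detected genes) kept 58 libraries, and technical repeats were summed into 32 samples. A gene entered the test if 5 or more libraries detected it and its log2(CPM + 1) had a variance above 0.001, which left 24004. One edgeR 4.0.16 model of all 12 conditions (R 4.3.3, TMM, trended dispersion, quasi-likelihood test, Benjamini-Hochberg adjustment over all 24004 genes) gave the changes, standard errors and p-values, and a gene was called at an adjusted p under 0.05. The study used DESeq2, which was run as an alternative (1.42.0). For a gene with a condition in which every sample was at or below 3 counts, levels are printed and no fold change, apart from the values that changed sign in the closing section. That limit covers counting error only, since PCR copies are not separate molecules. Gene positions and exon lengths are from a GENCODE annotation of GRCm38, and 45143 of the deposited identifiers matched a symbol.

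Replicate numbers are from the sample labels and are shared by groups. To check whether they pair the samples, each sample's deviation from its group mean was correlated with that of its same-numbered partner over the 5000 genes of highest expression. Every pair was above 0.1 for Ngn3 added to Pdx1 (4 pairs, 0.52 to 0.75), for Ngn3 added to MafA (5 pairs, 0.28 to 0.42) and for Pdx1 added to Ngn3 and MafA (5 pairs, 0.16 to 0.44), so for these the blocked fit is printed where it changes a call.

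The members and gene lists were chosen with earlier results of these data known. The genes named were the 8 members, up to 6 called genes per list with the lowest p, and for each member the 3 genes with the highest correlation of condition means among tested genes with a mean log2(CPM + 1) of at least 3. The defining acinar markers were named besides. Some genes that count in a list are not reported here by name. The alternatives were each replicate number left out in turn, DESeq2, the replicate block, RLE size factors, a fit of only the conditions compared, filterByExpr, all libraries, no gene filter, edgeR without its legacy setting, and the first technical repeat. The comparison of replicate 2 with replicate 1 was added after seeing the data. The fits were tested on simulated data.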

Additional observations from a re-analysis of the deposited data

How the results depend on the processing

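Foxa3 kept its direction and its call over all combinations in 13 of 13 alternatives (log2 change 1.08 to 2.46, adjusted p up to 0.0388), Prox1 its call in 11 and Hnf4a in 8 of 13, each with its direction kept. The number of members called with Ngn3 over all combinations, 3 as reported, was 1 in the WT cultures alone and 1 to 3 with a replicate left out. For Ngn3 added to Pdx1 it was 1 as reported, 2 with DESeq2, without a gene filter and with the replicate block, 0 when only the conditions compared were fitted, and 0 to 2 with a replicate left out. When Ngn3 was added to MafA it was 0 as reported, 2 with DESeq2, and 1 without a gene filter or with the block. With all 3 factors against Pdx1 and MafA it was 2, and 0 to 2 with a replicate left out. In that comparison, 1 of 12 alternatives, the block, newly called Foxa2, and 1 of 12 newly called Hnf4a. With Pdx1 added to Ngn3 and MafA the number of members called was 0, and 1 with DESeq2, without a gene filter or with the block. For passage it was 1, 2 with DESeq2 or without a gene filter, 3 with all libraries, 0 with the first technical repeat, and 1 to 3 with a replicate left out. The cause of these differences was not tested.

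Log2 values that changed sign were those of Gata4 (-0.50 to 2.92 with a replicate left out, negative without replicate 3) and Gata6 (-0.20 to 0.43, negative without replicate 1, and -0.17 in WT cultures) over all combinations, Foxa1 with Ngn3 added to Pdx1 (-0.79 to 0.35, positive without replicate 1, and 0.00642 with the replicate block), Foxa2 with Ngn3 added to MafA (-0.34 to 0.22, positive without replicate 3) and with passage (-0.75 to 1.04, positive without replicate 2), and in replicate 2 against replicate 1 Foxa1 (0.20 with the first technical repeat) and Hnf4g (-0.0469 without the legacy setting). Gata4 and Hnf4g have conditions with every sample at 3 counts or fewer, so their fitted values depend on the prior count and are no bound. Of 420 recomputed member values, 370 kept their direction and side of the threshold, 26 newly passed it and 15 no longer did.

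Where the replicate numbers were not shown to pair the samples, the replicate block moved 2 calls: Hnf4g over all combinations (adjusted p = 0.0167 in edgeR) and Foxa2 with all 3 factors against Pdx1 and MafA (0.88, adjusted p = 0.0321). Same-numbered deviations correlated above 0.1 in 12 of 14 pairs over all combinations and in 3 of 5 pairs with all 3 factors, and 28 of 32 samples correlated best with their own number. The block changed no other call of a member than these and the 3 printed in the report.

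Counts over all genes moved by more than 1.5 times as follows. Over all combinations 5168 genes were called, 2085 to 5074 with a replicate left out, 2062 in WT and 3384 in 6SA cultures. For Ngn3 added to Pdx1 the count was 358, 939 with DESeq2, 1273 without a filter, 1011 with the block, 684 without the legacy setting and 16 to 696 with a replicate left out. For Ngn3 added to MafA it was 1121, 1945 with DESeq2, 2077 without a filter, 2123 with the block and 138 to 1115 with a replicate left out. With all 3 factors it was 4279, and 880 to 3904 with a replicate left out. For Pdx1 added to Ngn3 and MafA it was 654, 1948 with DESeq2, 1930 without a filter, 2038 with the block, 321 with the first technical repeat, 1648 without the legacy setting and 0 to 999 with a replicate left out. For MafA added to Ngn3 and Pdx1 it was 451, 1371 with DESeq2, 1454 without a filter, 180 for only the conditions compared, 1188 with the block, 880 without the legacy setting and 16 to 1179 with a replicate left out. For passage it was 1975, 4142 with DESeq2, 3418 without a filter and 965 to 5025 with a replicate left out. Among combinations it was 8, 273 with DESeq2, 768 without a filter, 63 with the block, 29 without the legacy setting and 0 to 150 with a replicate left out. Of the contrasts with 0 genes as reported, without a filter the count was 239 for phospho-mutant against wild-type Ngn3, 101 for the difference of the Ngn3 change between cultures, and 61, 28 and 6 for Pdx1, MafA and culture in cells without Ngn3. With DESeq2 these were 26, 5, 27, 13 and 8. With a replicate left out they reached 31, 4, 1, 1 and 1, and with the block Pdx1 had 2. Gata4 and Hnf4g had at most 3 counts in 17 and 20 of 32 samples, where low expression, depth and loss in small pools cannot be told apart.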
